A study of Mus musculus with 14 samples.

Results

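ORR1 elements are long terminal repeat (LTR) retrotransposons, and 1938 of the 92842 open-chromatin peaks of a merged list from mouse blood progenitors lay in one. The members were the rows whose detailed annotation begins with ORR1, the name of the element that the annotation gives to the peak. The peaks came from ATAC-seq, which uses the Tn5 transposase to tag accessible DNA. Wild-type adult C57BL/6 mice, 8 to 12 weeks old, gave 7 sorted cell types with 2 libraries each. ProT cells were taken from the thymus, and the bone marrow gave the progenitors labelled MPP, CLP, CMP, GMP, MEP and ProB. All 14 libraries share this genotype, and no group was treated. The list merges the cell types and holds no value per library, so it cannot be said in which cells an ORR1 peak was open, no comparison between cell types was made, and depth is unknown.

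ORR1, for origin region repeat, belongs to the mammalian apparent LTR retrotransposons (MaLR). It is found in rodents, encodes no enzymes of its own and was copied with those of related ERVL elements. Most copies in the genome are single LTRs left after the internal sequence was lost by recombination. An LTR carries the promoter of the element, so that such copies can act as starts of transcripts or as distal regulatory DNA in the host. The letters after ORR1 follow age, with A the youngest branch and G the oldest.

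The 1938 ORR1 peaks made up 2.09% of all peaks (exact 95% interval 2.00 to 2.18%) and 31.7% of the 6120 peaks in LTR elements. They were 53.0% of the 3658 peaks in ERVL-MaLR elements, against 1117 peaks in the MT branch and 603 in MLT and other MaLR elements. The annotation named a repeat for no peak outside introns and intergenic sequence. ORR1 peaks were therefore set beside the other 73590 peaks of introns and intergenic sequence, and they formed 2.57% (2.45 to 2.68%) of that whole class of 75528. The intervals in these sentences and in those that follow cover counting error only, treat peaks as independent, and are not a test over samples.

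A few ORR1 peaks held the annotated start of a gene, and the DNA around those starts gives a view of sequence in and beside the elements. RefSeq starts of GRCm38.p6, the assembly whose primary sequence is that of mm10, were placed in the peaks. Of the 1860 ORR1 peaks on the chromosomes with such windows, 25 held a start, and the 25 genes that begin there were long noncoding RNAs (lncRNAs). Peaks classed as promoters carry no repeat name. Starts of genes known to the annotation of the list, coding ones among them, are thus largely left out by the way members were chosen. That class did not take in every peak over a listed start. The peak of 1700020M21Rik was classed as intronic, although the listed start lay 104 bp from its centre. RefSeq gives 4 of these genes a curated transcript, namely 1700020M21Rik, C430042M11Rik, Gm19765 and Gm26579, and the other 21 only predicted ones. Windows of 300 bases, with the start at position 251, are printed for 5 starts in ORR1A and ORR1B elements because they show the shared sequence of the younger branches. They are RefSeq promoter windows, read along the strand of the gene, and capitals mark the 8 bases AGGTGTGG or their reverse complement CCACACCT. Element boundaries were not analysed here, so a window can hold DNA from beside its element. Some windows run past the peak: that of Gm41934, printed further below, ends at chr1:119125320 and its peak at 119125208.
Gm46724, ORR1A0, chr4:130243776-130244075, plus strand: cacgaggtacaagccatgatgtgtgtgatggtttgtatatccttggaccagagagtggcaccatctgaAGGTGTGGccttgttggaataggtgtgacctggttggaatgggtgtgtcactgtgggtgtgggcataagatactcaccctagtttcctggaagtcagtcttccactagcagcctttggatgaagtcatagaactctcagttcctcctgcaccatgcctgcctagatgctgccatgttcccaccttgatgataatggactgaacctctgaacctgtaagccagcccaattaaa
Gm40411, ORR1A1, chr6:136798083-136798382, plus strand: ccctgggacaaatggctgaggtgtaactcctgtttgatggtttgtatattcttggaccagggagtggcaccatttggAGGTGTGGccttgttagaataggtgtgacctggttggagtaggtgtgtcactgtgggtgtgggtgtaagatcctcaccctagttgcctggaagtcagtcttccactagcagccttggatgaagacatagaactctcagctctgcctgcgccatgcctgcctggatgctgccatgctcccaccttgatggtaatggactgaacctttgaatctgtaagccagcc
Gm36268, ORR1A2, chr6:88917051-88917350, minus strand: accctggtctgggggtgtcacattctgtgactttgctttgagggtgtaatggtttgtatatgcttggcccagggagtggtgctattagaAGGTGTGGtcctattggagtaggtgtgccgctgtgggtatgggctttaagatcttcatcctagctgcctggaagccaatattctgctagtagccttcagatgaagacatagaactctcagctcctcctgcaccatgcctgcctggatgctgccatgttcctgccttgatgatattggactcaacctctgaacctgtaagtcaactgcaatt
Gm35081, ORR1A2, chr15:38143454-38143753, plus strand: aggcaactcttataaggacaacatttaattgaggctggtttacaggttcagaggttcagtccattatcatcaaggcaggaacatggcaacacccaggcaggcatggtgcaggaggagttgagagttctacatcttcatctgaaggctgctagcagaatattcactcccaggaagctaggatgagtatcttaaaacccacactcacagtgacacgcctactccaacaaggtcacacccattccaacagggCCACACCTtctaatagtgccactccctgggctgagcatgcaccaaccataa
Gm26579, ORR1B2, chr10:116674341-116674640, plus strand: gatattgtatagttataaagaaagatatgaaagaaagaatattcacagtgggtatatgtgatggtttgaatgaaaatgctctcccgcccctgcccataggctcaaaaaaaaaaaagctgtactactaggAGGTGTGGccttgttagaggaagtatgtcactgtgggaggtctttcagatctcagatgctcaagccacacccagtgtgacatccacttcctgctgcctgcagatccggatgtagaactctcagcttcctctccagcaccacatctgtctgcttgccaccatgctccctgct
All 5 windows hold the capital bases, and in Gm35081 they stand in the reverse orientation. Aligned to one another, the 6 windows of ORR1A0, ORR1A1 and ORR1A2 elements that read the same way were 71.6% to 91.5% identical over 204 to 271 bases. When their alignments were laid on one another, the 15 pairs of starts lay 2 to 21 bases apart, with a median of 11. These 6 transcripts, on several chromosomes, thus begin at nearly the same place of the same element in RefSeq. Windows of 300 bases and alignments of at least 150 bases limit how far apart 2 starts can be seen. The window of Gm35081 aligned to those 6 windows on the opposite strand, at 77.6% to 84.4% identity, so this transcript runs through its element the other way. The start of Gm52717, in an ORR1A3 element, lay 83 to 106 bases from the shared place in its 4 alignments to those windows. Another alignment, to Gm19765 in an ORR1B1 element (72.2% identity over 158 bases), put the 2 starts 1 base apart.

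The 8 windows in ORR1E elements had no partner among the 25 windows at the alignment settings used. They are represented by 3 windows, chosen because they hold a second word, ACAGGAAG or its reverse complement CTTCCTGT, in capitals. This word contains AGGAAG, the core that ETS factors bind. 1700020M21Rik is the one curated gene of the ORR1E group.
1700020M21Rik, ORR1E, chr9:120915201-120915500, minus strand: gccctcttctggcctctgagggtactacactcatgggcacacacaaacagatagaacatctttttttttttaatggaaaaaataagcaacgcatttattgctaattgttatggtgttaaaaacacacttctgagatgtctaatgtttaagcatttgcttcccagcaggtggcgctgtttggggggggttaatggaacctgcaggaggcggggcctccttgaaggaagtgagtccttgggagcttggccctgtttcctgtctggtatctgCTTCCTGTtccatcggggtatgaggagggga
Gm39888, ORR1E, chr2:101991680-101991979, plus strand: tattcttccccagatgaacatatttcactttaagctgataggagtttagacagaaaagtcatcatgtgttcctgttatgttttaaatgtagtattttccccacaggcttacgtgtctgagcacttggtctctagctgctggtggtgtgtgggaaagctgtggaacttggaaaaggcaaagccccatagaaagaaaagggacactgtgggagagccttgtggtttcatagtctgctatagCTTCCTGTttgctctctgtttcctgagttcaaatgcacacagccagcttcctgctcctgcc
Gm41934, ORR1E, chr1:119125021-119125320, minus strand: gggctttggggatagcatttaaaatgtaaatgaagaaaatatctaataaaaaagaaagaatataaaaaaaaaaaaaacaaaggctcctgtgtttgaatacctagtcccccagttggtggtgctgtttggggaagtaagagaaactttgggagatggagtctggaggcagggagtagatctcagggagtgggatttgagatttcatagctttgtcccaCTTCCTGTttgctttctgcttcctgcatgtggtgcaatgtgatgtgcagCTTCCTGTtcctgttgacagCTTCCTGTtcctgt
AGGTGTGG was picked as the most frequent word of 8 bases over the 25 windows, and ACAGGAAG as the most frequent over the 10 windows of ORR1D to ORR1G, so their counts by branch follow in part from that choice and test nothing. AGGTGTGG, on either strand, stood in 14 of the 15 windows of ORR1A to ORR1C and in 1 of the 10 of ORR1D to ORR1G, against 2.32% of the windows of all 27025 genes. ACAGGAAG stood in 1 of the 15 and 6 of the 10 windows, against 3.45% of all genes' windows.

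Among 13 motifs searched on both strands, AGGAAG, read by ETS factors such as PU.1, was in 16 of the 25 windows (64.0%, 42.5 to 82.0%), against 35.1% of all genes' windows and 42.7% of the 1509 windows that start in other intron and intergenic peaks, a value inside the ORR1 interval. TGTGGT, the core read by RUNX factors, was in 12 (48.0%, 27.8 to 68.7%), against 16.9% and 18.7% of the same windows. In the 10 windows that start in other MaLR peaks, AGGAAG was in 4 and TGTGGT in 3. TGTGGT can overlap AGGTGTGG where a T follows it, and the 25 windows are in part copies of one another, so the counts are not independent. By branch, TGTGGT was in 7 of the 15 windows of ORR1A to ORR1C and in 5 of the 10 of ORR1D to ORR1G. AGGTGTGG was in only 1 of those 10. How much of the TGTGGT count comes with AGGTGTGG was not tested. The GATA core GATAAG was in 2 windows (8.00%) against 7.43% of all, and CAGCTG, read by E proteins, was in 4 (16.0%) against 16.1%. CCCNNGGG, an inverted repeat read by EBF factors, was in 0 of 25, which allows up to 13.7%, against 13.4% of all windows. The promoter motifs TATAAA and CCAAT were in 5 and 6 windows (20% and 24%), against 14.2% and 37.9% of all windows. In the windows that start in other intron and intergenic peaks they were at 9.41% and 33.7%. For each motif not named here, the share of all genes' windows lay inside the ORR1 interval. A match is a run of letters, may lie in DNA beside the element, and is not evidence of a bound factor.

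By element letter, a start was held by 8 of 275 ORR1A peaks (2.91%, 1.26 to 5.65%), 6 of 301 ORR1B peaks (1.99%, 0.735 to 4.29%), 1 of 113 ORR1C peaks, 2 of 404 ORR1D peaks and 8 of 516 ORR1E peaks (1.55%, 0.672 to 3.03%). No start fell in the 219 ORR1F or 32 ORR1G peaks. For all ORR1 peaks the share was 1.34% (0.872 to 1.98%), against 0.562% (0.207 to 1.22%) of MT peaks, 0.683% (0.186 to 1.74%) of MLT and other MaLR peaks, and 2.10% (2.00 to 2.21%) of other intron and intergenic peaks. ORR1 peaks thus lay below the surrounding class by this count, while the intervals of the 3 MaLR groups overlapped. With the start required within 124 bp of the peak centre, a limit chosen after seeing the data, the shares were 0.753% (0.412 to 1.26%) of ORR1 peaks, 0.187% of MT peaks, 0.341% of MLT and other MaLR peaks and 1.01% (0.936 to 1.08%) of the surrounding class, and the ORR1 interval contained that of the class. A start was held by 19 of the 1079 ORR1 peaks between genes (1.76%, 1.06 to 2.74%). In introns it was 6 of 781 (0.768%, 0.282 to 1.66%), and these intervals overlapped.

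**Figure D1:**
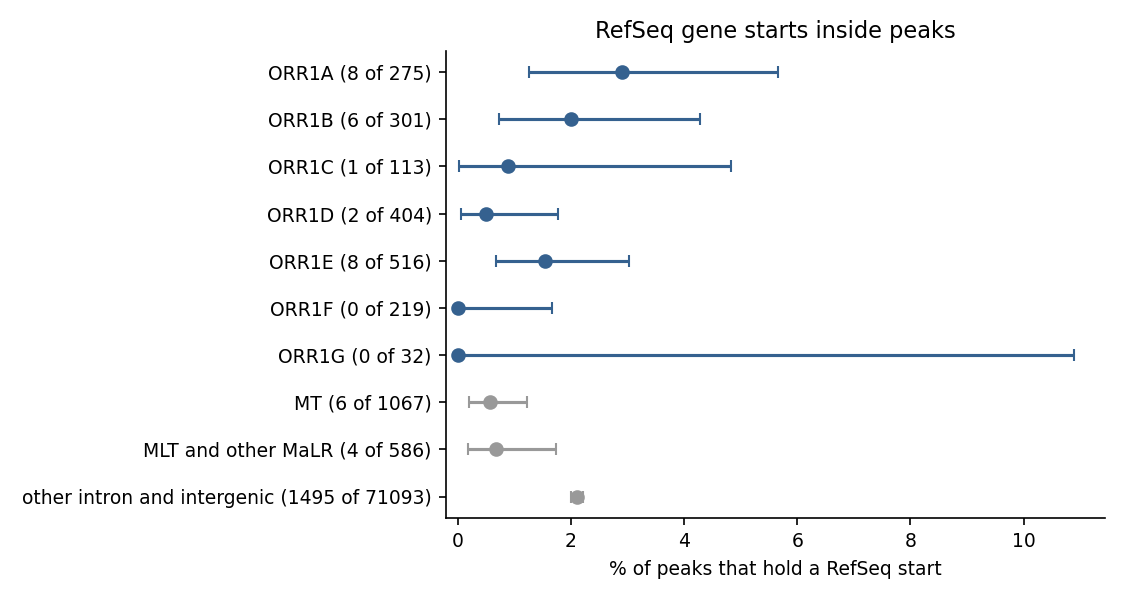
Share of peaks that hold the RefSeq start of a gene (x axis, %) for each ORR1 letter (blue) and for MT, MLT and other MaLR, and other intron and intergenic peaks (grey), on the chromosomes with RefSeq windows. Points are shares, bars exact 95% intervals and brackets the counts. The ORR1A share is 2.91% and the MT share 0.562%, and the ORR1G bar is wide because there are only 32 peaks.

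The peak list itself named 1 of these genes. For 24 of the 25 peaks another gene was listed as nearest, at a median listed distance of 40.2 kb over the 25 peaks. This follows in large part from the choice of members, which largely leaves out peaks over starts known to the list. The peak that holds the start of Gm33201, in an ORR1C1 element, was given to Prok2, a secreted prokineticin, 261 kb away. The peak with the start of Gm40180, in an ORR1A2 element, was given to Dnajb4, a heat shock protein 40 family chaperone, 3.71 kb away. Besides the 8 ORR1A windows, which were chosen for starting in a peak, 95 RefSeq windows aligned to at least 1 of them, and 6 of these (6.32%, 2.35 to 13.2%) began in a peak, 1 of them in an ORR1 peak. With the 8 included, the share was 14 of 103 (13.6%, 7.63 to 21.8%). For lncRNA genes as a whole the share was 18.0% of 9533, and 40.8% of all 27025 genes. Leaving the 8 out lowers the share and including them raises it, so whether it differs from that of lncRNA genes cannot be told. Most starts in sequence like that of the ORR1A windows were thus without a peak in this list.

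Turning to all 1938 members, 26 element names occurred, 14 for LTRs and 12 for internal sequences. LTR names covered 1861 peaks (96.0%) and internal names 77. ORR1E led with 533 peaks (27.5%, 25.5 to 29.5%), ahead of ORR1D2 with 301 (15.5%), ORR1F with 221 (11.4%) and ORR1B1 with 175 (9.03%). The intervals of these 4 shares did not overlap, except that those of ORR1F and ORR1B1 met between 10.0% and 10.4%. ORR1B2 had 125 peaks, ORR1A2 120, ORR1D1 98, ORR1A4 65, ORR1C2 56, ORR1C1 53, ORR1A3 36, ORR1G 33, ORR1A1 24 and ORR1A0 21. ORR1A0 and ORR1A1 were thus the least frequent among the LTR names. How many copies of each name the genome holds was not analysed here, so the counts are not rates of openness.

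**Figure D2:**
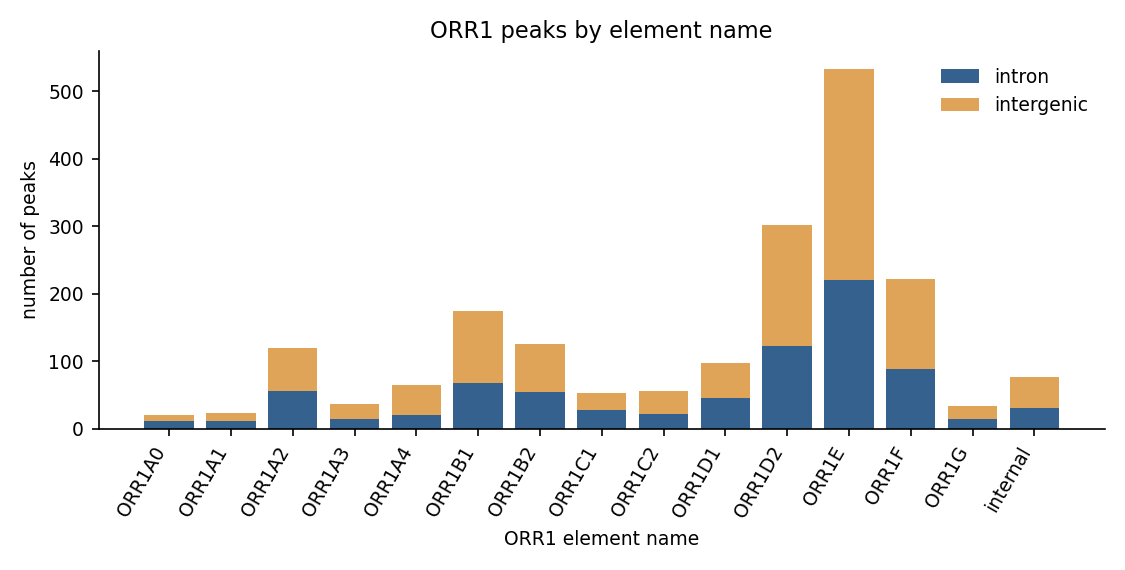
Number of ORR1 peaks (y axis) by element name (x axis), with internal sequences together at the right; blue is the part in introns and orange the part between genes. ORR1E stands highest with 533 peaks and ORR1A0 lowest with 21.

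In all, 808 ORR1 peaks (41.7%, 39.5 to 43.9%) lay in introns and 1130 between genes. The intron share was 44.4% of MT peaks, 41.5% of MLT and other MaLR peaks and 51.9% (51.6 to 52.3%) of other intron and intergenic peaks. ORR1 peaks were thus less intronic than the class around them, by a difference of -10.2 percentage points, while the intervals of the MaLR groups overlapped. The intron share ranged by letter only between 40.2% in ORR1B and 45.5% in ORR1G. Of the intronic ORR1 peaks, 240 (29.7%, 26.6 to 33.0%) were in intron 1 of the transcript named, against 34.7% for MT, 34.4% for MLT and other MaLR, and 35.3% (34.8 to 35.8%) for other intronic peaks. For 209 of the 802 intronic ORR1 peaks whose host gene could be matched (26.1%), the nearest start was that of another gene, against 26.4% for other intronic peaks.

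The median distance of ORR1 peaks to the nearest listed transcription start site (TSS) was 30.1 kb (27.9 to 32.2 kb), against 28.7 kb (26.1 to 31.1 kb) for MT peaks, 31.0 kb (27.6 to 35.7 kb) for MLT and other MaLR peaks and 25.4 kb (25.1 to 25.7 kb) for other intron and intergenic peaks. Within 10 kb of a TSS were 387 ORR1 peaks (19.97%, 18.2 to 21.8%), against 22.3% of MT, 17.4% of MLT and other MaLR, and 25.9% (25.6 to 26.2%) of other intron and intergenic peaks. ORR1 peaks were thus further from genes than the surrounding class, and within the intervals of the other MaLR branches. With every RefSeq start counted, predicted genes included, an alternative chosen after seeing the data, the medians were 19.8 kb (18.6 to 21.2 kb) for ORR1 and 16.8 kb (16.6 to 17.0 kb) for the surrounding class. The gap was larger in introns, where the ORR1 median was 26.2 kb (23.5 to 29.6 kb) against 21.02 kb (20.7 to 21.4 kb) for other intronic peaks. Between genes the medians were 32.9 kb (30.2 to 36.5 kb) and 30.8 kb (30.2 to 31.3 kb), with overlapping intervals.

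Distance differed between the letters. The median was 21.3 kb (17.3 to 24.6 kb) for the 285 ORR1A peaks, 27.3 kb (23.5 to 31.9 kb) for the 311 ORR1B peaks and 24.1 kb (16.6 to 30.4 kb) for the 120 ORR1C peaks. It was 32.9 kb (27.1 to 38.2 kb) for the 421 ORR1D peaks, 35.6 kb (31.4 to 41.8 kb) for the 542 ORR1E peaks, 35.9 kb (29.1 to 46.2 kb) for the 226 ORR1F peaks and 41.0 kb (19.4 to 91.8 kb) for the 33 ORR1G peaks. The ORR1A interval thus lay below those of ORR1D, ORR1E and ORR1F. The order broke at ORR1C, whose median was below that of ORR1B, and the intervals of neighbouring letters overlapped. The share beyond 100 kb was 10.9% (7.51 to 15.1%) of ORR1A and 20.1% (16.8 to 23.7%) of ORR1E peaks. The share within 10 kb was 27.7% (22.6 to 33.3%) of ORR1A and 17.9% (14.8 to 21.4%) of ORR1E peaks. The letters were compared without a test, since no value per library exists.

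**Figure D3:**
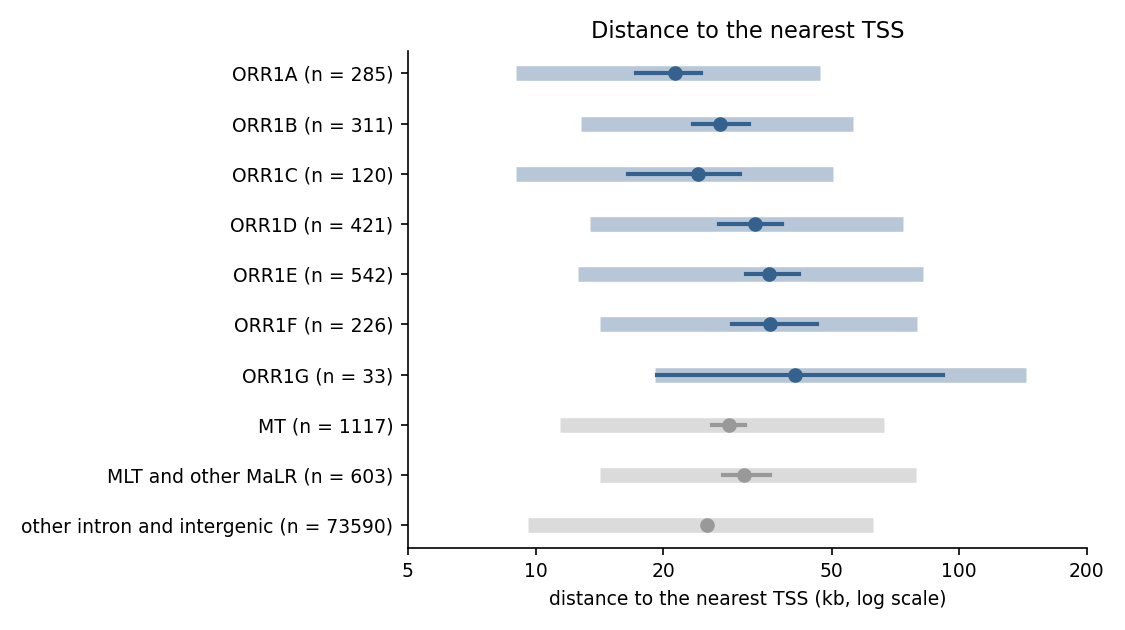
Distance to the nearest listed TSS (x axis, kb, log scale) by ORR1 letter (blue) and for MT, MLT and other MaLR, and other intron and intergenic peaks (grey). Points are medians, dark lines their 95% intervals and pale bars the quartiles. The medians run between 21.3 kb for ORR1A and 41.0 kb for ORR1G, against 25.4 kb for other intron and intergenic peaks.

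Names of one letter also differed in their medians. ORR1D1 peaks had a median of 24.2 kb (20.03 to 35.6 kb) and ORR1D2 peaks one of 36.2 kb (31.6 to 41.7 kb). ORR1B1 stood at 23.8 kb (20.8 to 29.5 kb) and ORR1B2 at 35.5 kb (24.7 to 45.1 kb). The intervals of both pairs overlapped, and ORR1B2 lay further out than ORR1D1. Internal sequences had a median of 24.3 kb (15.9 to 43.0 kb), against 30.2 kb (27.9 to 32.5 kb) for LTRs, again with overlap.

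Seen by distance class, ORR1 peaks were 0.262% of the 1906 intron and intergenic peaks within 1 kb of a TSS, 1.16% of those at 1 to 2 kb and 2.24% of those at 2 to 5 kb. They were 2.71% (2.49 to 2.95%) at 20 to 50 kb and 3.11% (2.59 to 3.69%) beyond 200 kb. The rise beyond 5 kb was seen in the pool of ORR1D to ORR1G, but not in each of its letters. The pool formed 1.34% (1.11 to 1.60%) of peaks at 5 to 10 kb and 2.24% (1.80 to 2.74%) beyond 200 kb. ORR1D formed 0.464% (0.335 to 0.627%) and 0.920% (0.649 to 1.27%) in these classes. ORR1E formed 0.597% (0.449 to 0.778%) and 0.970% (0.691 to 1.32%), with overlapping intervals. ORR1F was at 0.265% (0.170 to 0.395%) and 0.299% (0.154 to 0.521%), and ORR1G had only 1 and 2 peaks. ORR1A to ORR1C formed 1.12% (0.910 to 1.36%) and 0.871% (0.607 to 1.21%) in the same classes. MT peaks formed 1.69% (1.44 to 1.98%) and 1.62% (1.25 to 2.06%). MLT and other MaLR peaks formed 0.741% (0.574 to 0.940%) and 1.22% (0.903 to 1.61%), with overlapping intervals. A higher value far from genes was thus not seen in ORR1D to ORR1G alone, though for MLT and other MaLR it lay within that overlap.

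**Figure D4:**
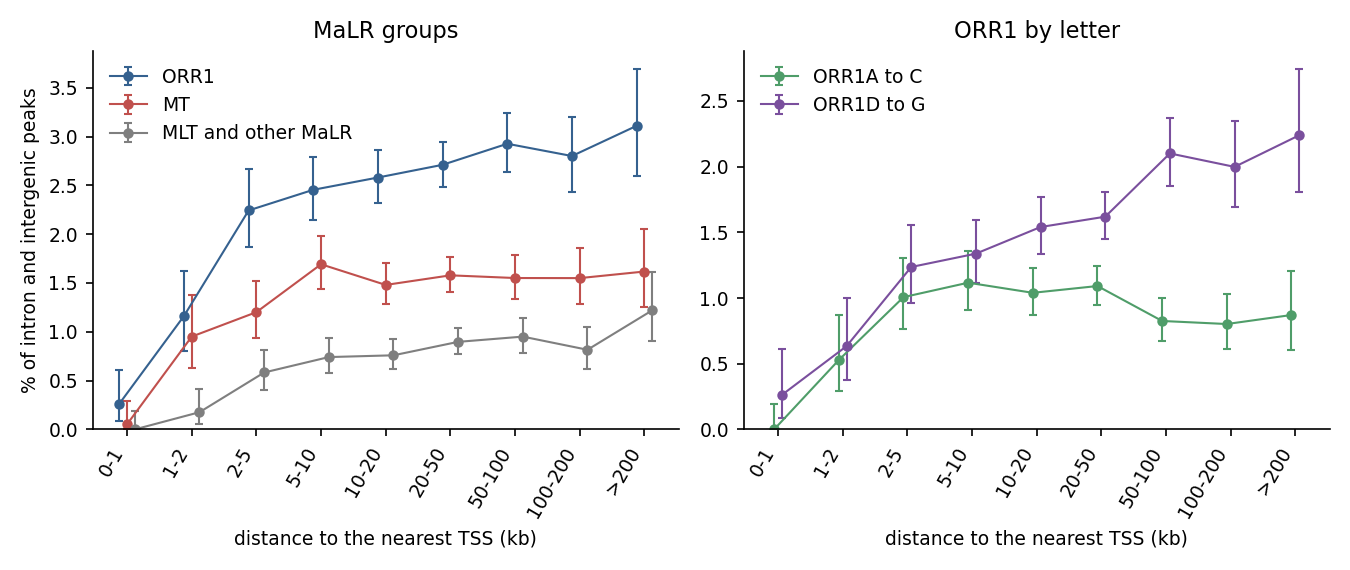
Share of intron and intergenic peaks (y axis, %) that lie in ORR1, MT, or MLT and other MaLR elements (left) and in ORR1A to C or ORR1D to G elements (right), by distance to the nearest listed TSS (x axis, kb). Points are shares and bars exact 95% intervals; the 2 panels have different y scales. ORR1 climbs to 3.11% beyond 200 kb, where ORR1D to G are at 2.24% and ORR1A to C at 0.871%.

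Within 1 kb of a listed TSS lay 5 ORR1 peaks, all ORR1E elements in introns. Peaks classed as promoters cannot be members, so few are possible there: of the 15002 peaks outside ORR1 within 1 kb, 1901 were in introns or intergenic sequence. They stood at 1700020M21Rik (chr9:120914897-120915395, 104 bp), D5Ertd605e (chr5:147418511-147419009, 140 bp), Jakmip1 (chr5:37050922-37051420, 314 bp), 4930445N18Rik (764 bp) and 2310001H17Rik (835 bp). Jakmip1, which encodes a protein that binds Janus kinases and microtubules, was the one coding gene among them. The next were between genes, an ORR1F peak 1062 bp upstream of AI314180 and an ORR1B1 peak 1075 bp upstream of Plekhm1, a regulator of lysosome fusion. Others within 2 kb included ORR1B2 peaks in intron 1 of Psmd14, a proteasome subunit (1108 bp), and at Mavs, the antiviral adaptor of mitochondria (1315 bp), and an ORR1D2 peak at Pole2, a DNA polymerase epsilon subunit (1261 bp). The furthest member was an ORR1A3 peak 1113 kb from Pla2g4a, a phospholipase that releases arachidonic acid.

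Across the 19 autosomes, ORR1 peaks formed 2.58 ± 0.297% (SD over chromosomes) of intron and intergenic peaks. The share was highest on chromosome 18, at 3.03%, and lowest on chromosome 11, at 2.05%. Their intervals, 2.40 to 3.77% and 1.66 to 2.50%, overlapped. Chromosome X, with 34 ORR1 peaks, was at 2.36%.

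Other peaks were common nearby. Within 10 kb of 74.0% (72.0 to 76.0%) of ORR1 peaks lay another peak of any kind, against 75.8% for MT, 72.1% for MLT and other MaLR, and 75.04% for other intron and intergenic peaks. These shares differed by less than their intervals. Pairs of neighbouring ORR1 peaks were few, with 3 within 1 kb and 49 within 10 kb, 11 of the 49 in the same subfamily with LTR and internal names pooled. The closest pair, an ORR1D2 and an ORR1A4 peak nearest to Gm5617, had centres 551 bp apart on chromosome 9.

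A total of 1666 genes, 8.72% of the 19105 genes nearest to a peak, were nearest to an ORR1 peak. Of them 1449 had 1 such peak, 177 had 2, 28 had 3, 9 had 4 and 3 had 5. Genes with an ORR1 peak had a median of 8 peaks in all, against 3 for all genes, so a count of ORR1 peaks follows the number of peaks of a gene. The nearest gene was protein coding for 1635 ORR1 peaks (84.4%). It was a noncoding RNA gene for 14.5% (13.0 to 16.1%), against 16.7% of MT peaks and 13.9% of other intron and intergenic peaks. The nearest gene need not be the one a peak acts on.

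The 3 genes with 5 ORR1 peaks were Tgfbr2, a receptor of transforming growth factor beta, the microRNA gene Mir21c and the noncoding 4921525O09Rik. At Tgfbr2 they were 5 of 45 peaks. An ORR1E peak lay in intron 4 (chr9:116111180-116111678), an ORR1D2 peak 9668 bp upstream (chr9:116184782-116185280) and the other three, ORR1D2, ORR1E and ORR1E, between 194 and 302 kb upstream. The 5 at Mir21c, of 28 peaks, were 3 ORR1F, 1 ORR1D1 and 1 ORR1E, and 4 of the 5 at 4921525O09Rik, of 38 peaks, were ORR1E. ORR1D to ORR1G held 14 of these 15 peaks, against 63.1% of all ORR1 peaks, and the genes with 4 ORR1 peaks included some with mostly ORR1A or ORR1B elements, such as H2afz and Mbnl1.

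Of the genes with 4 ORR1 peaks, Hlcs, whose product attaches biotin to carboxylases, had 4 ORR1D2 peaks of its 14 peaks in intron 4, inside chr16:94239516-94247445. H2afz, the gene of histone variant H2A.Z, also had 4 of 14, all upstream between 14594 and 54161 bp and in ORR1B1, ORR1B1, ORR1A2 and ORR1D2 elements. Both stood at 28.6%, the highest share among genes with at least 10 peaks. Rad23b, a nucleotide excision repair factor, followed with 3 of 11 (27.3%) and Socs6, a suppressor of cytokine signalling, with 4 of 15 (26.7%). Klf13, a Krüppel-like transcription factor, had 4 of 27, among them an ORR1A2 and an ORR1D2 peak in its intron 1, 6245 and 8695 bp from the TSS. The rest were Mbnl1, a splicing regulator, with 4 of 39, Sgms1, a sphingomyelin synthase, with 4 of 47, Cdh26, a cadherin, with 4 of 30, Mir6368 with 4 of 29, and Foxp1, with 4 of 88.

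Members of 12 gene lists of blood cell types and of comparison groups were looked up among the nearest genes. Antigen receptor signalling and checkpoint genes were nearest to an ORR1 peak in 7 of 20 cases (35%, 15.4 to 59.2%), against 8.72% of all genes with a peak. These genes have many peaks, with a median of 13, and ORR1 made up 3.15% (1.28 to 6.39%) of their intron and intergenic peaks, against 2.57% of all, which lies inside that interval. The members described were ORR1E peaks at Icos, a costimulatory receptor, Lcp2, the adaptor SLP-76, Plcg2, a phospholipase of B cell receptor signalling (chr8:117577108-117577606, intron 9), and Prkcq, the T cell kinase PKC theta, an ORR1D2 peak at Nfatc2, a calcium-driven transcription factor, and an ORR1B2 peak at Btla, an inhibitory receptor. Their distances ran between 35.5 kb at Btla and 161 kb at Nfatc2. None of these peaks lay near the start of its gene.

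Stem and multipotent progenitor genes were nearest to an ORR1 peak in 5 of 20 cases (25.0%, 8.66 to 49.1%), and ORR1 formed 2.67% (0.985 to 5.71%) of their intron and intergenic peaks. They were Runx1, the core binding factor needed for blood stem cells, with an ORR1A2 peak in intron 2 (chr16:92757518-92758016) and an ORR1E peak 54.7 kb from the TSS, Kit, the stem cell factor receptor, with an ORR1E peak at 105 kb, Myb (ORR1E, 46.6 kb), Erg (ORR1E, 54.3 kb) and Mycn (ORR1B1, 39.1 kb). T lymphoid genes had 4 of 20, at Cd28, Lef1, Thy1 and Zap70, and lymphoid progenitor factors 3 of 16, at Bcl11a, Foxp1 and Tcf4. The B lymphoid list had 1 of 19, an ORR1F peak 192 kb from Foxo1. Each of these 4 intervals contained the 8.72% of all genes.

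No ORR1 peak had a granulocyte and macrophage gene (0 of 20, which allows up to 16.8%), an erythroid gene (0 of 20, up to 16.8%) or an innate lymphoid and natural killer gene (0 of 14, up to 23.2%) as nearest gene. Those lists have fewer peaks, with medians of 5, 3 and 4.5 a gene, and 0 of 112, 0 of 95 and 0 of 75 intron and intergenic peaks allow ORR1 shares up to 3.24%, 3.81% and 4.80%, above the 2.57% of all. Megakaryocyte and platelet genes had 2 of 17 (Cd9 and Vwf), cytokine and chemokine receptors 2 of 20 (Ifnar1 and S1pr1), housekeeping genes 1 of 18 (Ywhaz) and genes of unrelated tissues 2 of 13 (Apoa1 and Col2a1). Apart from antigen receptor signalling, the interval of each list's gene share contained 8.72%, and for each of the 12 lists the interval of its share of peaks contained 2.57%.

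**Figure D5:**
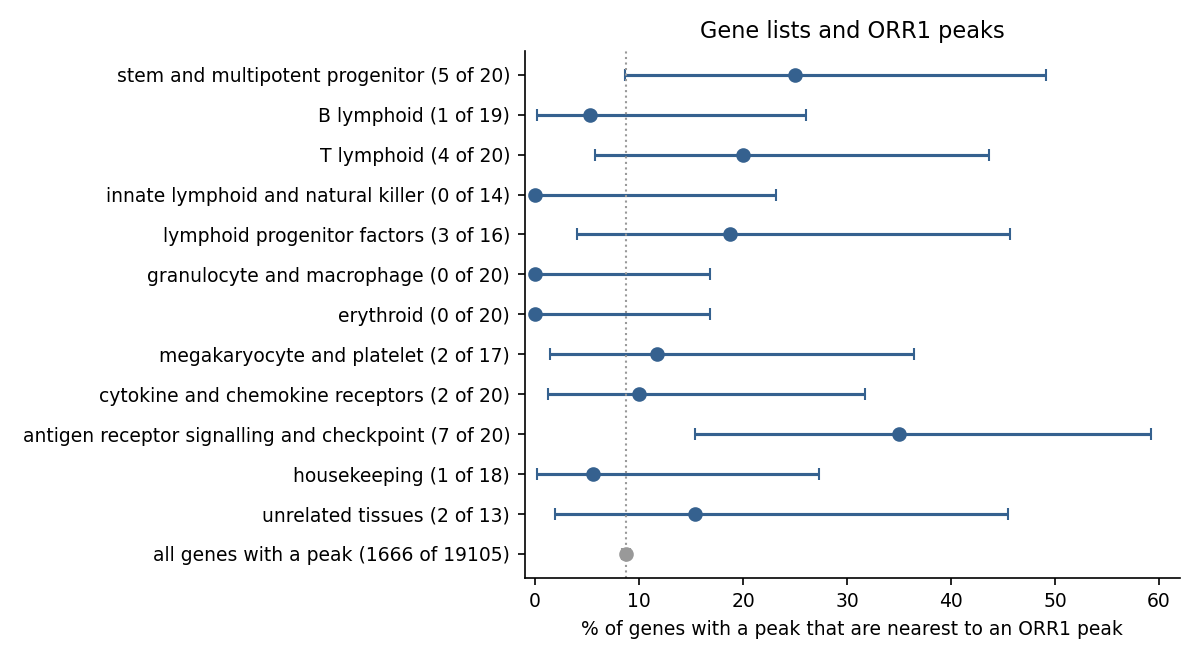
Share of listed genes with a peak that are nearest to an ORR1 peak (x axis, %), with exact 95% intervals and counts in brackets, for 12 gene lists (blue) and for all genes with a peak (grey, dotted line at 8.72%). The antigen receptor list stands at 35%, and 3 lists are at 0.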

How the data were processed

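The deposited data are 1 annotated list of peaks from ATAC-seq of 14 libraries of 7 cell types. Per the file headers, annotatePeaks was run by the authors with mm10. The version, HOMER 4.10.2, comes from the submitters' processing notes. The aligner, peak caller and merging step are not given in sources used here. Each peak is 499 bp wide, and the deposited score is 0 for each, so it was not used. Distances are the authors' signed bp between peak centre and nearest TSS. Members and lists were chosen with earlier results of these data known. Named genes were those with the most ORR1 peaks, the largest ORR1 share, the peaks closest to a TSS, or list membership.

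Shares carry exact Clopper-Pearson 95% intervals and medians order-statistic ones (scipy 1.17.1), and no test was run. RefSeq starts (GRCm38.p6) were placed in peaks on all chromosomes but 18, whose windows were not used here, and windows were aligned with blastn 2.17.0 (E value up to 1e-10, at least 150 bases). Counting steps were tested on simulated data. Peak sequences and per-library values were not analysed here, and 1 gene of a list is not reported here. Whether the 2 libraries of a cell type are separate animals is not stated in the labels.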

Additional observations from a re-analysis of the deposited data

How the results depend on the processing

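Leaving out internal sequences or chromosomes X and Y moved the ORR1 median distance, the share within 10 kb, the intron share and the ORR1E share by less than their intervals. Counting peaks of one name within 1 kb once removed 0 peaks and so tried nothing. Counting each nearest gene once gave a median of 25.6 kb and 22.4% within 10 kb; this keeps only the closest peak of a gene. Counting predicted RefSeq genes, chosen after seeing the data, gave 19.8 kb and 29.1%. Set beside all other peaks, promoters included, the ratio of median distances was 1.68 in place of 1.19, the share within 10 kb differed by -17.6 points and the intron share by -0.344 points. Beside other ERVL-MaLR peaks these were 1.03, -0.612 and -1.68 points. With limits of 5 and 50 kb, 8.51% and 64.8% of ORR1 peaks lay near a TSS. ORR1 formed 2.57% of intron and intergenic peaks and 31.7% of LTR peaks. Another peak lay within 5 kb of 49.9% and within 20 kb of 89.2%. A RefSeq start within 124 bp of the centre, also chosen after seeing the data, was held by 0.753% in place of 1.34%. The share of peaks with a motif was not run, since no genome was given. No paired analysis was possible because the merged list has no value per library.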
